A study of Arabidopsis thaliana with 12 samples.

Results

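The genes described here are 10 nuclear genes of mitochondrial retrograde signalling and alternative respiration in Arabidopsis thaliana, chosen by locus identifier. They are AOX1A (AT3G22370), AOX1D (AT1G32350), UPOX (AT2G21640), UGT74E2 (AT1G05680), BCS1, also called OM66 (AT3G50930), AT12CYS-2 (AT5G09570), NAC013 (AT1G32870), NAC017 (AT1G34190), NDB4 (AT2G20800) and CYP81D8 (AT4G37370). The table of 14897 genes held 7 of the 10, and AOX1D, AT12CYS-2 and NDB4 were not analysed here. Total RNA of whole seedlings, aged 14 days when treated in liquid culture under continuous light, was sequenced 48 h after the addition of L-glutamate (L-Glu) or of urea, each at 20 mM. Col-0, the wild type, and the mutant sid2 each received both treatments, which made 4 groups of 3 libraries. The sid2 mutant carries a lesion in SID2, the isochorismate synthase gene of salicylic acid synthesis; its allele is not given in the sources used here. No group went untreated, so each response to L-Glu is a difference from urea. Seedlings are a mixture of tissues, and in such samples fewer cells of a type and less RNA per cell cannot be told apart.

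Retrograde signalling carries information on the state of the mitochondrion back to the nucleus. In Arabidopsis, NAC017 and its relative NAC013 are transcription factors held in the membrane of the endoplasmic reticulum. When respiration is disturbed they are released, enter the nucleus and act on genes that carry the mitochondrial dysfunction motif, NAC013 among them. AOX1A is the best known of these genes and serves as the standard marker of the pathway. It encodes alternative oxidase, an enzyme of the inner mitochondrial membrane that passes electrons from ubiquinol straight to oxygen and so bypasses the proton-pumping cytochrome pathway.

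The motif is a pair of 4-letter blocks with 5 free letters between them. It was searched on both strands as the block CTTG, then the free letters, then either CAAG or CACG. The form that ends in CAAG reads the same on both strands and was counted once. In the 1000 bases before the first coding base, 5 of the 7 measured genes held at least 1 match, against 500 of 14651 protein-coding nuclear genes of the table, or 3.41%. The motif was first described from genes of this kind, so these matches are no independent evidence. The matches are shown because they are the letters the genes share, with 8 flanking bases on each side and the motif in capitals, 5′ to 3′ along the gene's strand in the RefSeq TAIR10.1 genome.
AOX1A match 1: atctagctCTTGGCGACCACGcaagtatc
AOX1A match 2: tcttccatCTTGCTCTCCAAGaaaaatct
UPOX: tttagtaaCTTGCTCTCCAAGgagatcta
UGT74E2: ccgcacatCTTGGTCGCCACGgaacatag
NAC017: acctctgtCGTGTCAGACAAGaatgttgg
CYP81D8: caaactttCTTGAGGAACAAGacttgact

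The AOX1A stretches lie on the plus strand at chr3:7906510-7906538 and chr3:7906537-7906565. Their motifs begin 372 and 345 bases before the first coding base, the first of them 3 bases before the annotated start of the gene and the second 24 bases after it. The UPOX stretch, on the plus strand at chr2:9254319-9254347, begins its motif 51 bases before the annotated start and carries the same 13 letters as the second AOX1A match. The UGT74E2 stretch is on the minus strand at chr1:1704805-1704833, with its motif inside the transcribed leader. The NAC017 stretch, on the plus strand at chr1:12451287-12451315, holds the form that ends in CACG on the opposite strand, so the capitals show its reverse complement. The CYP81D8 stretch is on the minus strand at chr4:17571863-17571891, and its motif begins 140 bases before the annotated start. BCS1 and NAC013 held no match in this window, which says only that these letters are not there. When the 1000 bases before the annotated start were searched instead, UPOX, NAC017 and CYP81D8 held a match, against 558 of 14651 genes, or 3.81%. The window before the coding sequence was added after that result was seen.

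The 12 libraries had medians of 74.1 to 77.2 on the deposited signal, a normalized read abundance per gene, and totals of 2564533 to 4419987. The number of reads behind them is unknown. SID2 signal was 98.3, 100 and 89.7 in Col-0 with urea and 43.3, 29.8 and 65.4 in sid2 with urea, and with L-Glu it was 9616, 7461 and 10896 in the wild type against 7434, 5421 and 7340 in the mutant. SID2 transcript was thus present in the libraries labelled sid2, and its differences from Col-0 of -1.06 with urea (adjusted p = 0.0745) and -0.47 with L-Glu (adjusted p = 0.197) did not pass the test. The ranges of SID2 in the genotypes did not overlap with urea, nor, by a narrow margin (7461 against 7434), with L-Glu. For the difference with urea, 4 of 21 alternatives gave a call. These were one total per library (-1.19, adjusted p = 0.0228), quantile normalization (-1.07, adjusted p = 0.0394), the replicate block (-1.06, adjusted p = 0.0275) and the fit without sid2 urea library 3 (-1.33, adjusted p = 0.0368). Whether the allele removes the transcript is not given in the sources used here, and directions between the genotypes rest on the labels. Markers of green tissue were all measured (8 of 8) and none was at 0. Their summed signal was 76675 to 87646 in Col-0 and 91057 to 125228 in sid2 with urea, against 1070 to 1913 and 2344 to 3594 with L-Glu, and all 8 fell in both genotypes. Root markers (6 of 9 measured, none at 0) summed to 2559 to 4094 and 2741 to 3433 with urea, and to 4474 to 9273 and 3390 to 4201 with L-Glu, in Col-0 and sid2. BGLU23 held most of that sum: the other 5 markers together gave 169 to 227 and 259 to 272 with urea, and 169 to 199 and 143 to 179 with L-Glu. With L-Glu, BGLU23 was called higher in the wild type (1.07 on the log2 scale), a call lost with one total per library (0.41) and reversed in direction by quantile normalization (-0.15). MYB36 was called higher in both genotypes (0.58 and 0.59), calls that 10 and 4 of the 12 omissions of a library ended. In sid2, SCR (-0.99) and SHR (-0.99, a gene chosen after its values were seen) were called lower. The signal of green tissue markers thus moved with the treatment in both genotypes. The ranges of its sum in Col-0 and sid2 did not overlap under either treatment. With L-Glu that gap was not shared by all 8 markers. RBCS1A (1.66), PETC (1.30) and RCA (1.26) were then called higher in sid2 and LHCB1.1 (-0.78) lower, and the others were not called. With urea no green tissue marker was called between the genotypes. The part of this signal in the results was not tested.

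The 7 measured genes had higher signal with L-Glu than with urea in both genotypes, and 4 of them (BCS1, CYP81D8, AOX1A and UGT74E2) were then among the most abundant transcripts of the seedling. All 7 were called higher with L-Glu than with urea in Col-0, where 29.7% of all genes were called higher and 30.3% lower, and all 7 in sid2, where 32% were called higher and 32.4% lower. A call here is a limma adjusted p under 0.05 over all 14897 genes. With each library scaled to one total, NAC017 was not called in either genotype and the other 6 genes were. The median log2 fold change of the 7 was 7.29 in Col-0 and 7.75 in sid2, beside medians of -0.05 and -0.02 over all genes. Genes that were low with urea could be in the table only through their signal with L-Glu, so the count of 7 of 7 does not extend to the 3 genes outside it. The 7 genes together held 0.0253% ± 0.00222 (SD, n = 3) of the library signal in Col-0 with urea and 1.78% ± 0.233 with L-Glu. In sid2 they held 0.0225% ± 0.00199 and 1.86% ± 0.0605.

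**Figure D1:**
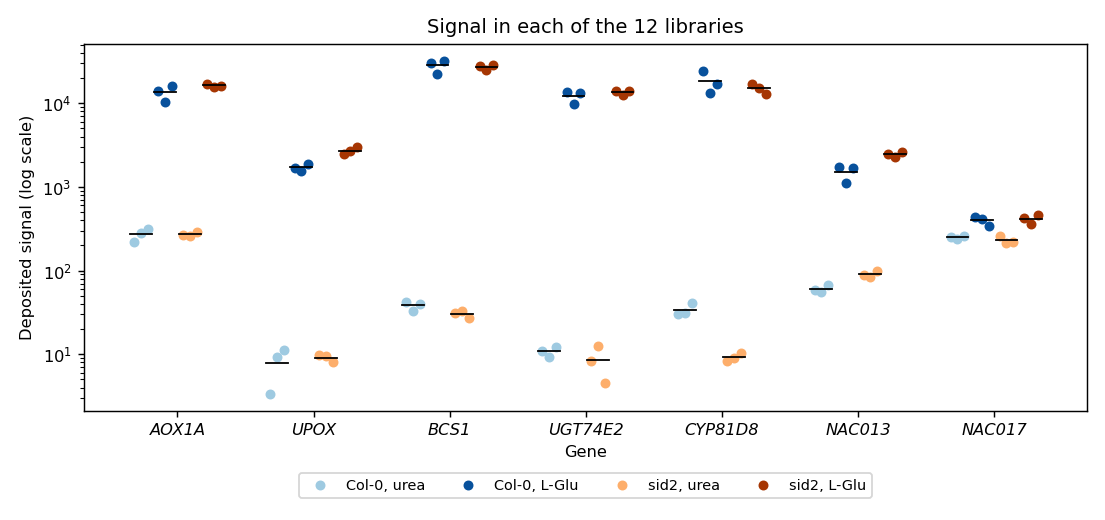
Deposited signal (log scale) of the 7 measured genes in each of the 12 libraries, one point per library in 4 colours for the groups, with a black bar at the group mean. For every gene the 3 L-Glu libraries lie above the 3 urea libraries of the same genotype. The gap is narrow for NAC017 and widest for UGT74E2 and CYP81D8 in sid2. The share of all genes with such a gap was not counted.

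NAC017, the transcription factor at the head of the pathway, was the member that moved least. It lies on chromosome 1 at 12451405 to 12454542 on the plus strand, with 4 exons. Its signal was 252, 238 and 257 in Col-0 with urea and 442, 413 and 340 with L-Glu in the same genotype. The sid2 values were 261, 214 and 219 with urea and 424, 356 and 462 with L-Glu. All 6 L-Glu libraries lay above all 6 urea libraries, but the means were only 1.60 times as high in Col-0 and 1.79 times as high in sid2. The log2 fold change was 0.66 (SE 0.174, adjusted p = 0.00289) in Col-0 and 0.83 (SE 0.174, adjusted p = 0.000379) in sid2. These calls depended on the scaling of the libraries. With each library scaled to one total the change was 0.01 (adjusted p = 0.962) in Col-0 and 0.30 (adjusted p = 0.157) in sid2, and with quantile normalization the Col-0 change was 0.36 (adjusted p = 0.0863). The related gene NAC016 lies just before NAC017 on the same strand, at 12448543 to 12451287. The 2 genes have 82.9% identity over the coding sequence, so reads of NAC016 may be in the signal of NAC017. This was not tested.

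NAC013, which in Arabidopsis is known to bind the motif and to be induced through it, rose strongly. The searched letters were not found before its coding sequence, and the part of the motif in its rise was not tested. The gene lies on chromosome 1 at 11911631 to 11913947 on the plus strand, with 3 exons. Signal in Col-0 was 58.8, 55.5 and 68.0 with urea and 1739, 1104 and 1697 with L-Glu. The sid2 values were 87.8, 83.1 and 98.8 with urea and 2497, 2249 and 2596 with L-Glu. The 4 groups did not overlap: each treatment and each genotype had its own range, and sid2 was the higher under both treatments. Between the genotypes only the L-Glu difference was called (adjusted p = 0.0183, against 0.520 with urea). Omitting single libraries ended that call in 3 of 12 cases. How many of all genes had ranges apart between the treatments or the genotypes was not counted, for NAC013 or the other genes. The log2 fold change for L-Glu was 4.54 (SE 0.190, adjusted p = 1.59e-13) in Col-0 and 4.71 (SE 0.190, adjusted p = 1.06e-13) in sid2. NAC013 overlaps AT1G32880, a gene on the opposite strand that the table does not hold, and strand use in the counting is not stated, so reads of both may be in its signal.

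AOX1A, the alternative oxidase gene, lies on chromosome 3 at 7906521 to 7908746 on the plus strand, with 4 exons. Its signal in Col-0 was 219, 285 and 318 with urea and 14156, 10372 and 15930.5 with L-Glu. For sid2 the values were 266, 258 and 288 with urea and 17198, 15647 and 16283 with L-Glu. AOX1A was the member most expressed per length with urea, and L-Glu took its mean from 273.8 to 13486 in Col-0, a ratio of 49.2, and to 60.5 times the urea mean in sid2. The log2 fold change was 5.60 (SE 0.217, adjusted p = 6.59e-14) in Col-0 and 5.90 (SE 0.217, adjusted p = 3.47e-14) in sid2. In Col-0, 1.36% of all genes had a higher log2 fold change, and in sid2 0.987% had.

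UPOX, a gene for a small mitochondrial protein known for its induction by hydrogen peroxide, lies on chromosome 2 at 9254378 to 9255743 on the plus strand. Signal in Col-0 was 3.36, 9.33 and 11.2 with urea and 1666, 1570 and 1885 with L-Glu. In sid2 it was 9.79, 9.45 and 8.13 with urea and 2451, 2716 and 2986 with L-Glu. The urea values were close to the lowest values of their libraries, which were 0.113 to 4.30 across the urea libraries, so the size of the ratio is poorly measured. The log2 fold change was 7.29 (SE 0.232, adjusted p = 5.06e-15) in Col-0 and 7.75 (SE 0.232, adjusted p = 2.53e-15) in sid2.

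BCS1 (OM66) encodes an AAA-type ATPase of the outer mitochondrial membrane and lies on chromosome 3 at 18929526 to 18932181 on the plus strand, in a single exon. Signal in Col-0 was 42.7, 33.2 and 40.1 with urea and 30042, 22425 and 32266 with L-Glu. For sid2 the values were 31.2, 32.8 and 27.2 with urea and 27687, 25204 and 29017 with L-Glu. BCS1 had the highest signal per kb of exon of the 7 genes with L-Glu in both genotypes. Its log2 fold change was 9.38 (SE 0.191, adjusted p = 6.37e-17) in Col-0, ninth of all genes, and 9.66 (SE 0.191, adjusted p = 3.72e-17) in sid2, the fifth. Its closest relative, AT3G50940, with 73.5% identity over the coding sequence, was not in the table.

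UGT74E2 encodes a glycosyltransferase that conjugates the auxin precursor indole-3-butyric acid with glucose. The gene lies on chromosome 1 at 1703002 to 1704838 on the minus strand, with 2 exons. Signal in Col-0 was 10.9, 9.395 and 12.1 with urea and 13540, 9870 and 13115 with L-Glu. In sid2 it was 8.41, 12.4 and 4.53 with urea and 13868, 12669 and 14152 with L-Glu. The urea values again lay near the floor of the libraries, and the lowest of the 6 L-Glu values was 9870. The log2 fold change was 9.72 (SE 0.217, adjusted p = 7.11e-17) in Col-0 and 10.20 (SE 0.217, adjusted p = 4.91e-17) in sid2. The neighbouring copy UGT74E1 has 89.5% identity with UGT74E2 over the coding sequence, so reads may have been divided between them, and UGT74E1 changed by 7.19 and 7.53.

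CYP81D8, a cytochrome P450 gene used as a marker of oxidative and chemical stress, lies on chromosome 4 at 17569740 to 17571743 on the minus strand, with 3 exons. Signal in Col-0 was 30.5, 31.3 and 41.0 with urea and 24199, 13389 and 17025 with L-Glu. In sid2 it was 8.41, 8.95 and 10.5 with urea and 17156, 15269 and 12888 with L-Glu. The genotypes did not overlap with urea, where sid2 was the lower, and overlapped with L-Glu. The sid2 urea values were as low as those of UPOX, close to the lowest values of their libraries, so the size of the sid2 ratio is poorly measured too. The log2 fold change was 8.88 (SE 0.211, adjusted p = 1.40e-16) in Col-0 and 10.20 (SE 0.211, adjusted p = 4.40e-17) in sid2.

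**Figure D2:**
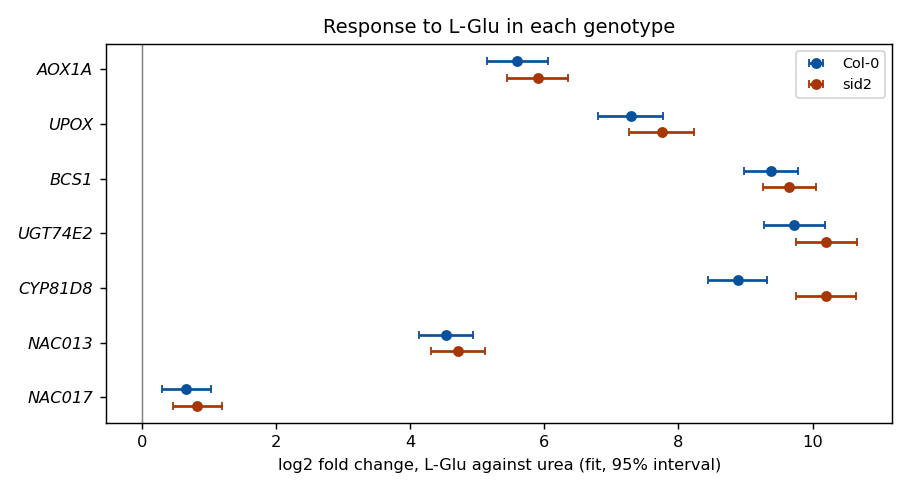
Log2 fold change for L-Glu against urea of the 7 genes in Col-0 (blue) and sid2 (brown), from the fit, with 95% intervals as bars and filled points for adjusted p under 0.05. NAC017 lies at 0.66 and 0.83, NAC013 and AOX1A between 4.54 and 5.90, and the other 4 genes above 7; CYP81D8 is the gene whose intervals lie farthest apart.

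Within a group the libraries were not equal. Col-0 L-Glu library 2 held the lowest signal of its group for 6 of the 7 genes, and sid2 L-Glu library 2 for 5 of 7. Col-0 urea library 3 held the highest for 6 of 7. All 7 genes were still called higher with L-Glu in both genotypes when any 1 of the 12 libraries was left out.

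Levels can be compared between genes only per length, here as deposited signal per kb of exon. With urea in Col-0 the order was AOX1A at 155 ± 28.6 per kb (SD, n = 3), NAC017 at 94.8 ± 3.73, NAC013 at 31.1 ± 3.30, CYP81D8 at 19.2 ± 3.25, BCS1 at 14.6 ± 1.85, UPOX at 10.8 ± 5.58 and UGT74E2 at 6.16 ± 0.780. The ranges of BCS1 and UPOX overlapped, as did those of UPOX and UGT74E2, and the other neighbours were apart. The order with L-Glu was another: BCS1, CYP81D8 and UGT74E2, in the lower places with urea, were then among the top 4. In Col-0 with L-Glu, BCS1 stood at 10634 ± 1943 per kb, CYP81D8 at 10170 ± 3073, AOX1A at 7645 ± 1610 and UGT74E2 at 6937 ± 1144, each overlapping the next. These 4 genes ranked 13, 14, 30 and 38 among 14819 genes with a known exonic length. UPOX followed at 2322 ± 219 per kb, NAC013 at 774 ± 182 and NAC017 at 152 ± 19.9, with no overlap between them.

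In sid2 the order on this scale was similar but not the same, with CYP81D8 under urea in place 6 rather than 4. With urea AOX1A led at 153.5 ± 8.76 per kb, followed by NAC017 at 88.0 ± 9.74, NAC013 at 46.0 ± 4.12, UPOX at 12.4 ± 1.19 and BCS1 at 11.4 ± 1.09, the last of which overlapped UPOX. CYP81D8 at 5.19 ± 0.605 and UGT74E2 at 4.82 ± 2.25 came last and overlapped. With L-Glu, BCS1 stood at 10279.5 ± 729 per kb, AOX1A at 9283 ± 442, CYP81D8 at 8438 ± 1195 and UGT74E2 at 7728 ± 449, and each of these overlapped the next. Their ranks among all genes were 15, 19, 28 and 33. Below them came UPOX at 3697.5 ± 364 per kb, NAC013 at 1251 ± 91.4 and NAC017 at 158 ± 20.6, with no overlap between them. UPOX and NAC013 lay above their ranges in Col-0 with L-Glu.

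**Figure D3:**
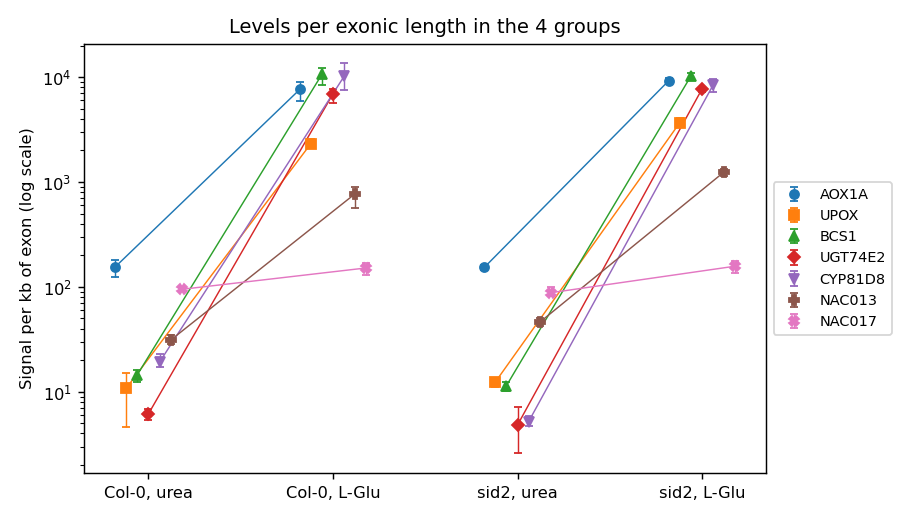
Deposited signal per kb of exon (log scale) of the 7 genes in the 4 groups, with markers at the group mean, bars from the lowest to the highest library and lines joining the treatments within a genotype. BCS1, CYP81D8, AOX1A and UGT74E2 converge near the top with L-Glu, while NAC017, second of the 7 with urea, is last with L-Glu.

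The design also asks whether the response depends on SID2. Of the 7 genes 1, CYP81D8, was called in the test of the difference between the responses, where 1.95% of all genes were called and 1.28% had the larger response in sid2. Its response was larger in sid2 by 1.32 on the log2 scale (SE 0.298, adjusted p = 0.0328). That difference came with a lower signal in sid2 under urea and overlapping signals under L-Glu, so its size rests on 3 low values, 8.41, 8.95 and 10.5. The call was lost, with differences of 1.12 to 1.39, when Col-0 urea library 2 or 3, Col-0 L-Glu library 2, any sid2 urea library, or sid2 L-Glu library 1 or 2 was left out. It was also lost with a pseudocount of 5, where the difference was 0.71 (adjusted p = 0.198), and without the intensity trend (adjusted p = 0.0614).

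For the other 6 genes the difference between the responses was 0.17 to 0.48 and did not pass the test. For AOX1A it was 0.30, with a 95% interval from -0.34 to 0.95 (adjusted p = 0.661). For BCS1 it was 0.28, from -0.29 to 0.84 (adjusted p = 0.645), and for UGT74E2 0.48, from -0.17 to 1.12 (adjusted p = 0.447). For UPOX it was 0.46, from -0.23 to 1.15 (adjusted p = 0.503). For NAC013 and NAC017 it was 0.18 (adjusted p = 0.787) and 0.17 (adjusted p = 0.782). The upper ends of these intervals reached 1.15, so equal responses were not shown.

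With urea, CYP81D8 was the 1 member called between the genotypes, beside 0.248% of all genes called and 0.181% called lower in sid2. CYP81D8 was lower in sid2, at 9.285 ± 1.08 (SD, n = 3) against 34.3 ± 5.82, a log2 difference of -1.56 (SE 0.211, adjusted p = 0.00319) whose size rests on the same low values. No omission of a library ended this call, but a pseudocount of 5 did (-0.95, adjusted p = 0.0751), as did a fit of the 6 urea libraries by themselves (adjusted p = 0.0798). NAC013 was 1.48 times as high in sid2, without overlap, and its log2 difference of 0.54 (SE 0.190) had an adjusted p of 0.520. BCS1 did not overlap either, with sid2 the lower, at a log2 difference of -0.31 (adjusted p = 0.854). AOX1A was at 273.8 ± 50.5 in the wild type and 270.9 ± 15.5 in sid2, with a log2 difference of -0.00 and a 95% interval from -0.46 to 0.46.

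With L-Glu, NAC013 was the 1 member called, beside 13.3% of all genes called and 7.27% called higher in sid2. It was higher in sid2, at 2447.5 ± 179 (SD, n = 3) against 1514 ± 355, a log2 difference of 0.72 (SE 0.190, adjusted p = 0.0183). The difference was 0.51 (adjusted p = 0.106) without Col-0 L-Glu library 2, 0.70 (adjusted p = 0.0585) without sid2 L-Glu library 1 and 0.68 (adjusted p = 0.0632) without sid2 L-Glu library 3, and the call was lost in each case. UPOX stood at 2717.7 ± 267.5 in sid2 against 1707 ± 161 without overlap, but its log2 difference of 0.67 (SE 0.232) had an adjusted p of 0.0630. It passed the threshold when Col-0 urea library 1 (adjusted p = 0.00774) or library 3 (adjusted p = 0.0444) was left out. With the replicate number as a block its adjusted p was 0.0456. CYP81D8, the gene that differed with urea, was at 18204 ± 5500.5 in Col-0 and 15104 ± 2139 in sid2, a log2 difference of -0.24 with a 95% interval from -0.68 to 0.21. AOX1A, UGT74E2, BCS1 and NAC017 differed by 0.30, 0.17, -0.03 and 0.05, none of them called.

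**Figure D4:**
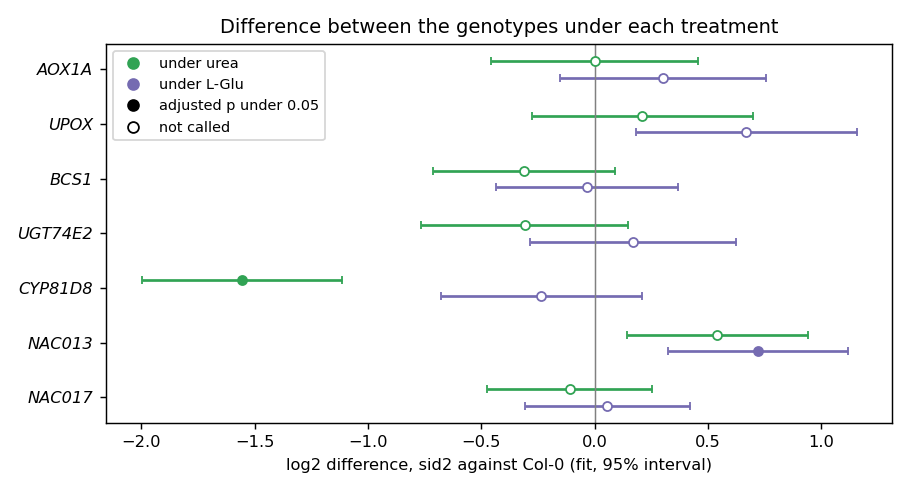
Log2 difference of sid2 from Col-0 for the 7 genes under urea (green) and under L-Glu (purple), from the fit, with 95% intervals as bars, filled points where adjusted p was under 0.05 and open points elsewhere. CYP81D8 under urea (-1.56) and NAC013 under L-Glu (0.72) are the filled points.

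Further genes of the mitochondrial dysfunction response changed as well. Of 14 such genes 11 were measured, and 10 rose and 1 fell with L-Glu in each genotype. Their median log2 fold changes were 5.78 in Col-0 and 6.34 in sid2. Over all genes 29.7% were called higher and 30.3% lower in Col-0, and 32% and 32.4% in sid2. The counts of this and the following lists, reference genes and families are to be read beside those shares. As with the 7 genes, these counts do not extend to genes outside the table. OXI1, which encodes a protein kinase induced by oxidants, changed by 10.15 and 10.04. SOT12, a sulfotransferase gene, changed by 8.33 and 9.34. HSP23.5, which encodes a small mitochondrial heat shock protein, changed by 7.09 and 6.04, and AT5G14730 by 6.22 and 6.71. Motif matches before the coding sequence were found in 5 of the 11, namely CRF6, SOT12, SLP2, AT5G14730 and HSP23.5, against 3.41% of all genes searched. The motif was first described from genes of this kind, so these matches too are no independent evidence.

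Other genes of alternative respiration split. Alternative NAD(P)H dehydrogenases feed electrons into the chain without pumping protons, and uncoupling and dicarboxylate carriers move ions and acids across the inner membrane. Of 14 such genes 9 were measured; 5 rose and 2 fell in Col-0, and 5 rose and 4 fell in sid2. The dicarboxylate carrier genes DIC2 and DIC1 changed by 6.38 and 4.15 in Col-0 and by 5.90 and 4.16 in sid2. NDB2, an external dehydrogenase gene that is often induced along with AOX1A, changed by 2.17 and 2.30. Motif matches before the coding sequence were found in NDB2 and in NDA1. NDA1 did not rise: it was not called in Col-0 (-0.02) and was called lower in sid2 (-0.66). NDB1, a relative of NDB2, fell by 1.54 and 1.42 on the log2 scale. With each library scaled to one total, 3 rose and 4 fell in Col-0 and 4 rose and 4 fell in sid2.

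Among regulators of retrograde signalling 12 of 15 were measured; 8 rose and 1 fell in Col-0, and 8 rose and 2 fell in sid2. WRKY40, a repressor known to act on AOX1A in Arabidopsis, changed by 5.46 and 5.17, and WRKY15 by 3.11 and 3.32. NAC016, the closest relative of NAC017 with 82.9% identity over the coding sequence, changed by 3.39 and 3.54. NAC053, another membrane-bound factor, changed by 2.51 and 2.70. RBL2, a rhomboid protease gene, was the regulator that fell in Col-0, with a log2 fold change of -1.29 there and -1.59 in sid2.

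Nuclear genes of the respiratory chain and ATP synthase more often fell than rose. Of 25 such genes, which include complex I and succinate dehydrogenase and so not only the cytochrome pathway, 24 were measured. In each genotype 1 rose, 14 fell and 9 were not called, with median changes of -0.55 in both. Among genes of the cytochrome bc1 complex, cytochrome c and cytochrome oxidase, QCR7, RISP-2, MPPBETA and COX6B fell in Col-0. In sid2 only QCR7 and RISP-2 of these genes fell. The complex I gene CIB22 changed by -1.25 and -1.27, QCR7 of the cytochrome bc1 complex by -0.94 and -1.02, and ATP-gamma of ATP synthase by -0.87 and -0.64. CYTC-2, a cytochrome c gene, was the exception, at 1.28 in Col-0 and 2.39 in sid2. With each library scaled to one total 23 fell in Col-0 and 20 in sid2, and CYTC-2 still rose in both. The 5 common reference genes showed no rise either, 2 falling in each genotype. ACT2 changed by -1.37 and -1.49 and SAND by -0.84 and -1.12.

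Mitochondrial chaperones, proteases and import components (11 of 12 measured) rose for 7 genes in Col-0 and for 8 in sid2, where 1 fell. The Hsp70 gene mtHSC70-1 changed by 4.47 and 5.06 and the translocase gene TIM17-1 by 4.81 and 4.40. The Hsp70 gene mtHSC70-2 changed by 2.36 and 1.36 and the ClpB chaperone gene CLPB4 by 1.64 and 0.82. With each library scaled to one total, 5 rose and 4 fell in Col-0 and 6 rose and 3 fell in sid2.

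**Figure D5:**
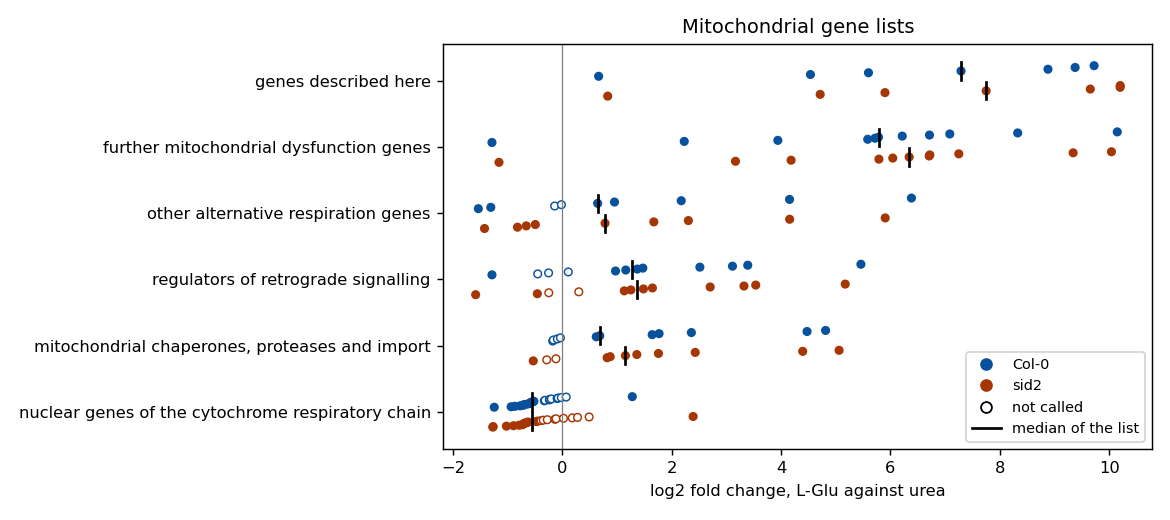
Log2 fold change for L-Glu against urea of every measured gene of 6 lists in Col-0 (blue) and sid2 (brown), with filled points where adjusted p was under 0.05, open points elsewhere and a black bar at the median of each list. The genes described here and the further dysfunction genes lie far to the right, with medians of 5.78 to 7.75, and most respiratory chain genes lie left of 0, with medians of -0.55.

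The families of 3 of the genes showed how far the change extended to relatives. Among relatives of BCS1, 5 of 10 were measured and 4 rose in both genotypes, with AT2G18193 at 10.50 and 10.75, AATP1 at 5.09 and 5.31, AT5G17760 at 2.50 and 2.90 and AT5G57480 at 1.56 and 0.93. Among CYP81D genes, 5 of 8 relatives were measured, of which 4 rose and 1 fell in Col-0 and 3 rose and 1 fell in sid2. CYP81D11 changed by 5.37 and 5.86, CYP81D1 by 1.555 and 1.61, and CYP81D4 by -0.92 and -1.01. Of the UGT74 genes 5 of 6 were measured. UGT74E1 was the 1 that rose, while UGT74C1 changed by -2.35 and -3.03 and UGT74D1 by -1.17 and -1.76. The members of these families thus differed widely in size and direction.

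Between the genotypes under L-Glu, 16 of the 82 measured genes of these 8 lists (19.5%) were called, beside 13.3% of all genes. Higher in sid2 were CYTC-2 by 1.13, TOM20-2, an import receptor gene, by 1.102, CRF6 by 1.04, the prohibitin gene PHB3 by 0.87, CYP81D3 by 0.86, SLP2 by 0.83, MGE1 by 0.82, NAC016 by 0.80, TIM23-2 by 0.72, AT5G17760 by 0.66 and LON1 by 0.65. Lower were UGT74F2 by -2.05, mtHSC70-2 by -1.02, CLPB4 by -0.85, CI75 by -0.66 and SDH1-1 by -0.54, all as log2 differences. CYTC-2, TOM20-2 and UGT74F2 were called under every omission of 1 library, and 13 were not. Leaving out Col-0 L-Glu library 2 ended 12 of the calls, sid2 L-Glu library 1 ended 12, library 2 ended 13 and library 3 ended 8. Without Col-0 L-Glu library 2 the differences of CRF6, SLP2 and mtHSC70-2 were 0.69, 0.44 and -0.71. UGT74F2, a salicylic acid glucosyltransferase gene, was also lower in sid2 with urea, by -1.28 (adjusted p = 0.00791), a call that ended without Col-0 urea library 2 or sid2 urea library 1.

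AOX1A was used to find genes of like pattern, by the smallest root mean square difference of log2 values, each centred on its own mean, over the 12 libraries. The closest were AT1G13340 at 0.212, AT5G43450 at 0.220, AT1G21520 at 0.221, the xyloglucan endotransglucosylase gene XTH18 at 0.223 and the kinase gene MAPKKK14 at 0.223. Of these, AT5G43450 also belongs to the further mitochondrial dysfunction genes above. The other members were farther off, NAC013 at 0.622, UPOX at 0.918, BCS1 at 1.90, CYP81D8 at 1.99, UGT74E2 at 2.13 and NAC017 at 2.515. The measure depends on the size of the response, which was larger than that of AOX1A for 4 of these 6 and smaller for the other two.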

How the data were processed

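The deposited table gives 1 signal per gene and library, normalized by the authors in a way that is not given in the sources used here. Per the submitters' processing notes, the TAIR10 build and the tools edgeR 3.22.3, HTSeq 0.6.0, TopHat2 2.1.0 and TopHat were used; which tool did what is not said. The signal was divided by 3.492, a constant that sets the mean library total to 1e+06, and log2(value + 1) was fitted with limma 3.58.1 (R 4.3.3, intensity trend) as 4 group means over 12 libraries. All 14897 genes were tested two-sided, with Benjamini-Hochberg adjustment and a threshold of 0.05. The pseudocount, 3.492 deposited units, understates the change of genes that are low with urea. The fit was tested on simulated data.

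Groups follow the sample titles, since the genotype characteristic reads Col-0 even for samples whose titles say sid2. Nothing says that libraries came from separate cultures, so p-values measure the spread between libraries. Read depth is unknown and no interval that needs it is given. Strand use in counting is not given in the sources used here.

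Libraries of the same replicate number deviated together between the treatments in sid2 (correlations 0.116, 0.287 and 0.204) and between the genotypes under urea (0.126, 0.219 and 0.196), so a fit with the number as a block was added.

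Genes and lists were chosen with earlier results of these data known. The rule for named genes was SID2, all members, up to 4 genes per list with the smallest p in Col-0, list genes called between genotypes or in their difference, and the 5 genes most like AOX1A; of the markers and reference genes a selection is printed. Gene models and sequences are RefSeq TAIR10.1, read with pysam 0.24.0. Motifs and coding identities were computed with Biopython 1.88.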

Additional observations from a re-analysis of the deposited data

Results flagged for a closer look

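For 3 of the genes named here the test of the difference itself found unequal L-Glu responses in sid2 and Col-0. Over all genes 1.95% were called in that test. List genes called in it were named for that reason, so the count of 3 is no result about the named genes. For CYP81D8 the log2 response was larger in sid2 by 1.32 (adjusted p = 0.0328). For the cytochrome c gene CYTC-2 it was larger in sid2 by 1.11 (SE 0.275, adjusted p = 0.0430), with signals of 56.8 ± 5.24 (SD, n = 3) with urea and 144 ± 27.6 with L-Glu in Col-0, and of 57.7 ± 7.19 and 316 ± 8.78 in sid2. For LHCB1.1, a light-harvesting gene among the green tissue markers, the difference was -1.35, a larger fall in sid2 (SE 0.318, adjusted p = 0.0374). Each of these 3 calls was lost when some single libraries were left out: 8 of 12 for CYP81D8, 9 of 12 for CYTC-2 and 8 of 12 for LHCB1.1. Their highest adjusted p over all alternatives was 0.198, 0.131 and 0.102.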

How the results depend on the processing

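The 7 genes were followed through 728 alternative fits of their results. Of these 703 kept their side of the threshold, 18 lost a call, 7 gained one and 0 reversed. For other named genes these counts were 6438, 6252, 156, 26 and 4. A change of sign in a result called in neither fit was not counted as a reversal. For NAC013 the difference between the responses thus ran from -0.03 to 0.30 and counted as kept. The reversals were TOM20-2 (-0.0148), PP2AA3 (-0.44) and MYB36 (-0.0102) in Col-0 with each library scaled to one total, and BGLU23 (-0.15) in Col-0 with quantile normalization. One total per library moved the median of all genes from -0.05 to -0.66 in Col-0 and from -0.02 to -0.52 in sid2, and the share of calls that were higher from 49.5% to 26% and from 49.6% to 31.2%. That share moved from 65.6% to 82.9% for the difference between the responses and from 27% to 13.3% between the genotypes under urea. The cause was not tested.

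The difference between the responses had 291 calls over all genes (2511 at an unadjusted p under 0.05). It had 453 with a pseudocount of 5, 153 with quantile normalization, 143 without the intensity trend, 627 with library weights and 9 (without sid2 L-Glu library 2) to 367 with 1 library left out; the members called were 1, and 0 with a pseudocount of 5, without the trend or under some omissions (0 to 1). Between the genotypes under urea there were 37 calls, 20 with a pseudocount of 5, 60 with one total, 12 without the trend, 67 with weights, 5 with only the libraries compared and 13 (without sid2 urea library 1) to 37 under omissions. The members called were 1, and 0 with a pseudocount of 5 or only the libraries compared. Under L-Glu there were 1983 calls, 792 (without sid2 L-Glu library 2) to 2649 under omissions; the members called were 1, with 2 under a pseudocount of 5, quantile normalization, weights, only the libraries compared or the replicate block, and 0 to 2 under omissions.

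With the replicate block 9160 genes were called in Col-0, 9775 in sid2, 426 for the difference, 49 between the genotypes under urea and 2360 under L-Glu. The block ended no call of a member and added UPOX under L-Glu. By the same check the correlations were 0.086, 0.026 and 0.062 between the treatments in Col-0. Between the genotypes under L-Glu they were 0.142, -0.11 and 0.112. No threshold for pairing was set, so these values do not settle whether the numbers pair the libraries. Unknown read depth limits what can be said of genes low with urea.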
